A study of Mus musculus with 15 samples.

Results

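The 10 genes described here are the core identity genes of serotonergic neurons, read in brainstem RNA-seq of mice that lacked Lmx1b or were labelled as lacking AMPKα2. They were taken by name, and Ensembl identifiers in the count tables were matched to mouse symbols. All 10 were found, among 57180 gene identifiers of which 90.7% had a symbol. They are Lmx1b, Tph2, Slc6a4, Fev, Slc18a2, Ddc, Htr1a, Htr5b, Gata2 and Gata3. Their values came from all 15 libraries of the series, in 2 experiments with 3 libraries per genotype.

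The Lmx1b experiment compared prenatal brainstem ventilatory center tissue of WT (LMX1B+/+), Lmx1b+/- and Lmx1b-/- embryos. The age of the embryos, the exons removed from Lmx1b and whether a library held 1 or several embryos are not given in the sources used here. The AMPK experiment compared brainstem of newborn WT (AMPK+/+) mice with that of littermates labelled AMPKα2-/-. All mice were on the C57BL/6 background and no agent was given to any of these groups. Age, experiment and sequencing run cannot be told apart between the experiments, so levels were compared only within each. Nothing states that the 3 libraries of a group came from separate animals, and p-values measure only the spread between them.

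Serotonergic neurons lie in the raphe nuclei along the brainstem midline and project to nearly all of the brain and spinal cord, including the respiratory groups of the medulla. They arise from ventral hindbrain progenitors. The homeodomain factor Lmx1b and the ETS factor Fev, also called Pet-1, are needed to turn on and keep on the genes for making, packing and retrieving serotonin. The GATA factors Gata2 and Gata3 act early in the same lineage and are also used in other ventral neurons, so the 10 genes range from nearly exclusive markers of these cells to genes shared with many others.

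Tph2 encodes the neuronal tryptophan hydroxylase, the rate-limiting enzyme of serotonin synthesis. Slc6a4 encodes the serotonin transporter that takes the transmitter back up. The stretches of 250 bases before the RefSeq start sites (build GRCm38.p6) of Tph2 (chr10:115185023-115185272, minus strand), Slc6a4 (chr11:76998347-76998596, plus strand), Fev (chr1:74885409-74885658, minus strand) and Slc18a2 (chr19:59260628-59260877, plus strand) are shown, since the first 3 of these genes had, with Lmx1b, the largest falls in Lmx1b-/- and Slc18a2 kept most of its level. They are written 5′ to 3′ in the direction of the gene, and capitals on either strand mark AGATAA, the letters that zinc finger factors of the Gata2 and Gata3 family bind. Capitals also mark TAATTA, a homeodomain core.
Tph2: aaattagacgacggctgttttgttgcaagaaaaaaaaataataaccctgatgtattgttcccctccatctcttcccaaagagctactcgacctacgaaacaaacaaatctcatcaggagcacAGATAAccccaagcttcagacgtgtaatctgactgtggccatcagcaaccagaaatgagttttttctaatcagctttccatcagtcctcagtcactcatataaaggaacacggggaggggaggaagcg
Slc6a4: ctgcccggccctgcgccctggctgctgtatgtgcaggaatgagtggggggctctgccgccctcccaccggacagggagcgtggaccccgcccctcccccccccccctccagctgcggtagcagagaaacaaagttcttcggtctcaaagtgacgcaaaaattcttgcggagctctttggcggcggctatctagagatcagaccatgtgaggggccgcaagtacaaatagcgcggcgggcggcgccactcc
Fev: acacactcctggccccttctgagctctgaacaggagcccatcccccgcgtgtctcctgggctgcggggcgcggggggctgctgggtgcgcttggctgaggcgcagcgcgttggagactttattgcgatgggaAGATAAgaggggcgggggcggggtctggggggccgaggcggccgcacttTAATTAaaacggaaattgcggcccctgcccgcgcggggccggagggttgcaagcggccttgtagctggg
Slc18a2: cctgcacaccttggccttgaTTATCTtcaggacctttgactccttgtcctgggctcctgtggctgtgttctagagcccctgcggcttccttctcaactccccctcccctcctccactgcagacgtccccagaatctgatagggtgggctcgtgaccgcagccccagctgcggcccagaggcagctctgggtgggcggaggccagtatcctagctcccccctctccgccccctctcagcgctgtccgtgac
RefSeq held a start for 9 of the 10 genes, and not for Htr5b. Ddc and Gata2 had 2 starts each. Each of the 9 genes was counted once, while the shares of all promoters count each start. AGATAA was present before 3 of the 9 (Tph2, Fev and Slc18a2) and in 9.99% of all 32851 promoters of this length. TAATTA was present before 1 of the 9 (Fev) and in 4.84% of all promoters, and no capitals of one motif overlapped those of the other. CGGAAG, 1 form of an ETS core, was present before 0 of the 9 and in 13.6% of all promoters, and other forms were not searched. Slc6a4 held none of the 3 motifs in this window, and these matches of letters are a description, not binding sites.

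Read levels below are in CPM, counts relative to the total of their library, and were scaled with TMM factors, which set aside shifts in library composition. The 9 libraries of the Lmx1b experiment held 28833130 to 37441679 counts, so that 3 counts correspond to 0.0676 to 0.109 CPM. In the AMPK experiment 4 libraries held 14975095 to 17384171 counts, while WT 2 held 291212 and AMPKα2-/- 3 held 335986, and 3 counts there correspond to 9.98 and 9.07 CPM. The gene targeted in that experiment, Prkaa2, did not pass the test as lower under its label. It stood at 21.9, 26.6 and 29.7 CPM in the WT libraries and at 25.4, 22.3 and 12.1 CPM under the AMPKα2-/- label (log2 fold change -0.20, edgeR quasi-likelihood adjusted p = 0.659). Which part of Prkaa2 was removed is not given in the sources used here, so this reads neither for nor against the labels. In the Lmx1b experiment, Lmx1b fell in the Lmx1b-/- libraries and was not lower in those labelled Lmx1b+/-.

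Whether loss of Lmx1b changes the serotonergic program was read from Lmx1b-/- against WT. Slc6a4, Tph2 and Lmx1b nearly disappeared, to 2.73%, 3.73% and 7.10% of their mean WT level, and held ranks 1, 2 and 3 by p among all genes tested. Fev was at 20.0% of WT, Ddc at 45.9% and Slc18a2 at 63.0%, whereas Htr1a, Htr5b, Gata2 and Gata3 overlapped between the genotypes. Of 21729 genes tested, 4 passed an adjusted p of 0.05, all of them lower (0.0184% of genes). Among the 4 were 3 of the 10 identity genes, including Lmx1b, the targeted gene itself. The other was Calb1, a calcium-binding protein of many neurons, at a log2 fold change of -0.85 (adjusted p = 0.0429), and it lost its call with either limma fit, with the replicate block, and without WT 1, WT 2, WT 3, Lmx1b-/- 1 or Lmx1b-/- 2. At an unadjusted p under 0.05 there were 1757 genes. In 6 of the 10, the 3 Lmx1b-/- libraries lay outside the range of WT, as did 18.0% of all genes in either direction. The median log2 fold change of the 10, Lmx1b included, was -0.90, against 0.01 over all genes tested. With 3 libraries against 3, an exact permutation test of a single gene cannot go below p = 0.1, so the values below rest on edgeR's quasi-likelihood test fitted over all genes.

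**Figure D1:**
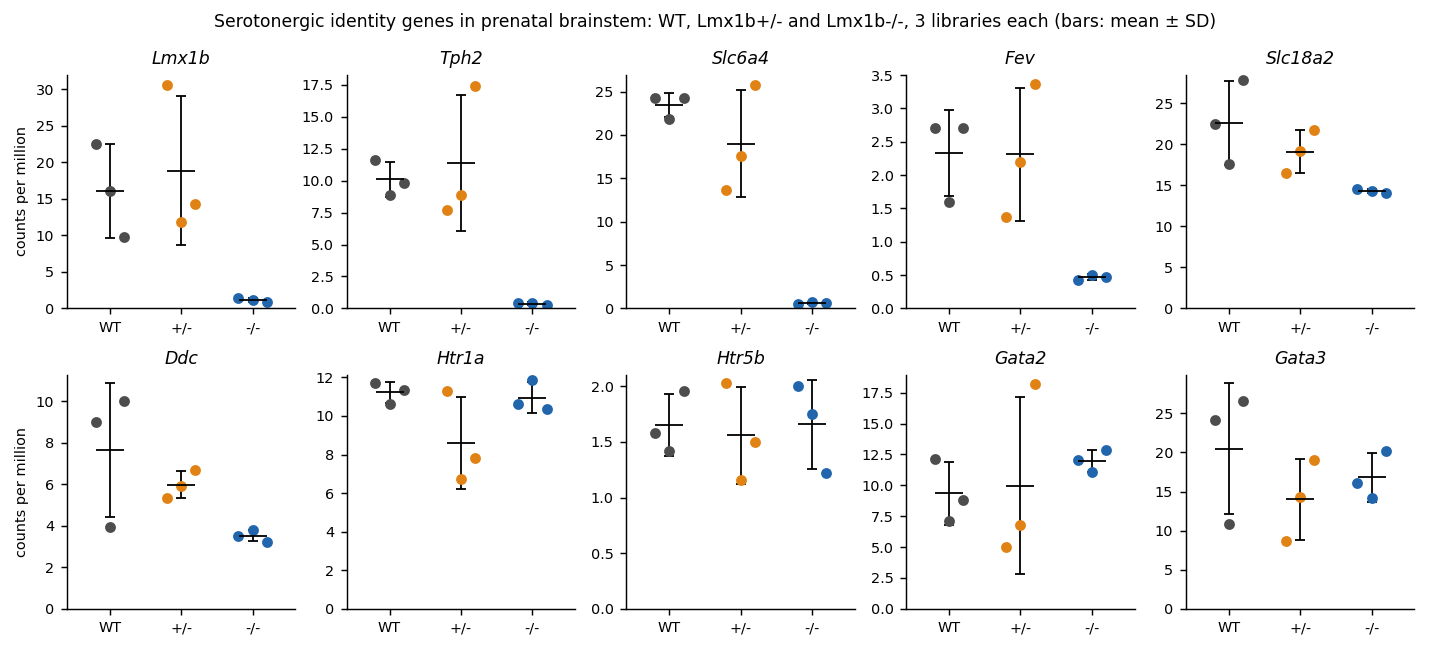
TMM-scaled CPM of each of the 10 genes in the prenatal libraries (linear axes from 0, points are libraries, bars are mean ± SD of 3). The Lmx1b-/- points of Lmx1b, Tph2, Slc6a4 and Fev lie at or under 1.45 CPM and far below the other genotypes, those of Slc18a2 and Ddc lie just under the lowest WT point, and those of Htr1a, Htr5b, Gata2 and Gata3 lie within or across the WT points.

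Lmx1b is the LIM-homeodomain factor that was targeted. It stood at 22.5, 16 and 9.73 CPM in the WT libraries and at 1.45, 1.13 and 0.848 CPM in Lmx1b-/-, from 45, 38 and 32 reads. The groups did not overlap, and the residual reads were in every Lmx1b-/- library. Its log2 fold change was -3.82 ± 0.41 (SE, adjusted p = 0.00287, n = 3 against 3, edgeR). Because the removed exons are not given, reads of a partial transcript and of intact mRNA cannot be told apart here.

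Tph2 stood at 11.6, 8.90 and 9.85 CPM in the WT libraries and at 0.420, 0.446 and 0.265 CPM in Lmx1b-/-. Every Lmx1b-/- library was above the level that 3 counts give, with 13, 15 and 10 reads, and the lowest WT value was 20.0 times the highest Lmx1b-/- value. The log2 fold change was -4.75 ± 0.35 (SE, edgeR adjusted p = 4.8e-05).

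Slc6a4 varied little in WT, at 24.2, 21.9 and 24.2 CPM (coefficient of variation 5.78%, against 4.88% for Htr1a, the lowest of the 10). In Lmx1b-/- it stood at 0.484, 0.772 and 0.663 CPM. Its log2 fold change of -5.18 ± 0.25 (SE, edgeR adjusted p = 5.9e-07) was the largest fall of the 10, although its 95% interval of -5.73 to -4.63 overlapped that of Tph2, -5.50 to -3.99. With any 1 of the 9 libraries removed the calls of both genes held, as did that of Lmx1b.

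Fev, whose protein acts with Lmx1b on the synthesis and transport genes, was a low gene throughout. It stood at 2.71, 1.59 and 2.70 CPM in the WT libraries and at 0.420, 0.505 and 0.477 CPM in Lmx1b-/-, from 13, 17 and 18 reads. The groups did not overlap and Fev held rank 5 by p, at a log2 fold change of -2.31 ± 0.35 (SE), but its edgeR adjusted p of 0.0758 missed the threshold. The 95% interval of the change, -3.08 to -1.55, lay above that of Tph2. Leaving out WT 2, Lmx1b+/- 1 or Lmx1b+/- 3 gave adjusted p of 0.0225, 0.0136 and 0.0335, and DESeq2 also called Fev lower.

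Slc18a2 encodes the vesicular monoamine transporter that loads serotonin, and also dopamine, noradrenaline and histamine, into vesicles. It stood at 22.5, 17.6 and 27.8 CPM in the WT libraries and at 14.5, 14.3 and 14.0 CPM in Lmx1b-/-. The 3 Lmx1b-/- values had a coefficient of variation of 1.66% and all lay under the WT range. Its fitted change on the log2 scale was -0.67 ± 0.16 (SE, 95% interval -1.01 to -0.33, edgeR adjusted p = 0.491).

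Ddc encodes aromatic amino acid decarboxylase, which makes serotonin and dopamine from their precursors. It stood at 9.0, 3.95 and 9.98 CPM in the WT libraries and at 3.52, 3.77 and 3.23 CPM in Lmx1b-/-. WT 2 was 1.05 times the highest Lmx1b-/- value, while WT 1 and WT 3 were far above it. The log2 fold change was -1.13 ± 0.27 (SE, 95% interval -1.71 to -0.55, edgeR adjusted p = 0.491), and without WT 2 it was -1.44 (adjusted p = 0.00708). DESeq2 called 6 of the 10 lower, these 2 genes and Fev included.

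Some genes of other monoamine cells and of the rostral brainstem had low values in the same libraries as Slc18a2 and Ddc. Of the noradrenergic, dopaminergic, isthmus and midbrain, and forebrain lists no gene passed the edgeR test, while 4 of 5, 2 of 7, 3 of 10 and 7 of 8 had an unadjusted p under 0.05 and DESeq2 called 1, 0, 1 and 4. Th, tyrosine hydroxylase, stood at 7.32, 2.42 and 6.35 CPM in the WT libraries and at 1.52, 2.35 and 1.41 CPM in Lmx1b-/- (log2 fold change -1.61, adjusted p = 0.332). Slc6a3, the dopamine transporter, stood at 6.05, 0.935 and 5.30 CPM in the WT libraries and at 0.581, 0.564 and 0.769 CPM in Lmx1b-/- (log2 fold change -2.67). En2, a midbrain and isthmus factor, stood at 39.9, 12.1 and 31.6 CPM in the WT libraries and at 2.49, 3.33 and 4.08 CPM in Lmx1b-/- (log2 fold change -3.07). WT 2 was the lowest WT library for each of these, as it was for 9 of the 10 identity genes, all but Lmx1b. The summed level of the 11 isthmus and midbrain genes was 112 to 187 CPM in the WT libraries and 85.0 to 97.9 CPM in Lmx1b-/-, that of the 5 noradrenergic genes 16 to 34.1 and 11.1 to 18 CPM, and that of the 8 dopaminergic genes 91.3 to 108 and 93.5 to 95.7 CPM. Of the dopaminergic sum, Ret alone gave 57.1, 64.2 and 43.7 CPM in the WT libraries and 59.7, 61.4 and 57.1 CPM in Lmx1b-/-. Of the 7 dopaminergic genes tested, 5 had a log2 fold change under 0 and 2 over 0. The 10 forebrain genes summed to 38.4 to 62.8 CPM in the WT libraries and 39.3 to 77.8 CPM in Lmx1b-/-. The part of tissue boundaries in the changes of Ddc and Slc18a2 was not tested. In such bulk tissue, fewer cells of a type and less RNA per cell cannot be told apart.

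Htr1a encodes a serotonin receptor that restrains raphe neurons and that many of their target neurons also carry. It stood at 11.7, 10.6 and 11.3 CPM in the WT libraries and at 10.6, 11.9 and 10.4 CPM in Lmx1b-/-. The genotypes overlapped, and the 95% interval of the log2 fold change was -0.40 to 0.33 around -0.04. Htr5b, a second receptor gene known in the raphe, stood at 1.58, 1.42 and 1.96 CPM in the WT libraries and at 2.00, 1.75 and 1.22 CPM in Lmx1b-/- (log2 fold change -0.01, interval -0.59 to 0.57). A change as large as that of Fev lay outside both intervals.

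Gata2 stood at 12.1, 7.10 and 8.83 CPM in the WT libraries and at 12.0, 11.1 and 12.9 CPM in Lmx1b-/- (log2 fold change 0.36, interval -0.41 to 1.13). Gata3 stood at 24.1, 10.9 and 26.5 CPM in the WT libraries and at 16, 14.2 and 20.2 CPM in Lmx1b-/- (log2 fold change -0.29, interval -0.95 to 0.36). Neither gene passed the test, and for both the WT libraries spread more widely than those of Lmx1b-/-. Both factors also mark V2b and midbrain GABAergic neurons. The 12 genes listed for these, Gata2 and Gata3 included, summed to 536 to 563 CPM in the WT libraries and 509 to 580 CPM in Lmx1b-/-. Gad1, Gad2, Slc32a1 and Slc6a5 made up most of these sums, which therefore say little about the other listed genes. Of the 12, 9 had a log2 fold change under 0 and 3 over 0, from -1.16 to 0.36, and 0 passed the edgeR test.

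Levels per length, taken from the deposited RPKM, changed their order with genotype. In WT the order ran from Gata3 (5.61 ± 2.77 RPKM, SD, n = 3) and Slc6a4 (5.54 ± 0.96) over Slc18a2 (4.70 ± 1.68), Tph2 (3.74 ± 0.58), Lmx1b (3.34 ± 0.97), Htr1a (2.68 ± 0.40), Ddc (1.87 ± 0.95), Gata2 (1.84 ± 0.46) and Fev (1.56 ± 0.55) to Htr5b (0.926 ± 0.286). Every pair of neighbours in that order overlapped across its libraries. In Lmx1b-/- Gata3 (4.39 ± 0.79 RPKM), Slc18a2 (2.84 ± 0.08), Htr1a (2.54 ± 0.18) and Gata2 (2.31 ± 0.17) led. Fev (0.301 ± 0.025 RPKM), Lmx1b (0.239 ± 0.066), Slc6a4 (0.147 ± 0.032) and Tph2 (0.136 ± 0.036) came last, so that Slc6a4 moved from rank 2 to rank 9 and Tph2 from rank 4 to rank 10. The gaps below Gata3, Slc18a2, Gata2 and Ddc in Lmx1b-/- were free of overlap, and the others were not.

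Whether 1 copy of Lmx1b is enough was read from the libraries labelled Lmx1b+/- against WT. Of the 10 genes 0 passed the edgeR test, while 36.7% of all genes did. In 0 of the 10 the groups were apart, against 45.3% of all genes. Lmx1b itself stood at 30.5, 11.9 and 14.3 CPM in Lmx1b+/-, with 2 libraries inside the WT range and Lmx1b+/- 1 above it (log2 fold change 0.23, 95% interval -0.49 to 0.96). A fall to 1 of 2 copies, a log2 fold change of -1, lay outside this interval. Without Lmx1b+/- 1 the change was -0.30 (adjusted p = 0.437).

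Tph2 stood at 7.67, 8.90 and 17.4 CPM in Lmx1b+/- and Slc6a4 at 13.7, 17.6 and 25.7 CPM. Fev stood at 1.38, 2.19 and 3.36 CPM in the same libraries. In all 3 genes Lmx1b+/- 1 was lowest and Lmx1b+/- 3 highest, and both of these libraries lay outside the WT range. The log2 fold changes were 0.17 (interval -0.38 to 0.72), -0.30 (-0.71 to 0.11) and -0.01 (-0.67 to 0.65), and without Lmx1b+/- 3 that of Slc6a4 was -0.58 (edgeR adjusted p = 0.0162). Lmx1b+/- 3 was also highest for Gata2, at 18.2 CPM against 4.99 and 6.77 CPM in the other two, and without it the log2 fold change of Gata2 was -0.66 (adjusted p = 0.0459).

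Slc18a2 stood at 16.4, 19.1 and 21.7 CPM in Lmx1b+/-, Ddc at 5.36, 5.90 and 6.69 CPM and Gata3 at 8.61, 14.3 and 19.0 CPM. Their log2 fold changes were -0.25, -0.36 and -0.55, and without WT 2 they were -0.40, -0.66 and -0.85 with edgeR adjusted p of 0.0499, 0.00831 and 0.0215. Htr1a, at 11.3, 6.71 and 7.80 CPM, was the 1 gene of the 10 with an unadjusted p under 0.05 (log2 fold change -0.39, adjusted p = 0.0939), and without Lmx1b+/- 1 the change was -0.63 (adjusted p = 0.00552). Htr5b stood at 2.03, 1.16 and 1.5 CPM (log2 fold change -0.10). DESeq2 called 0 of the 10, and limma on log2(RPKM + 1) called Htr1a alone.

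The Lmx1b+/- libraries stood apart from WT across the transcriptome, and red blood cell genes were among those that rose: 8 of 9 erythroid genes tested were higher, and the 12 listed summed to 3552 to 7519 CPM against 511 to 1252 CPM in WT. Gata1, a defining factor of that lineage which is related to Gata2 and Gata3, was at 0 in all WT libraries and at or under 0.290 CPM in Lmx1b+/-. The part of blood in the member values was not tested. Scaling by library size alone in place of TMM moved the median of all genes by -0.24 (log2) in this comparison and took the share of DEGs that were higher from 53.0% to 26.1%. Under it Tph2 (-0.07) and Gata2 (-0.13) changed sign and Slc6a4, Htr1a and Gata3 passed the test as lower.

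Lmx1b-/- against Lmx1b+/- shared the Lmx1b-/- libraries with the first comparison and the Lmx1b+/- libraries with the second, so it is no independent test of either. Lmx1b, Tph2, Slc6a4 and Fev fell, at log2 fold changes of -4.05 ± 0.41, -4.92 ± 0.35, -4.88 ± 0.25 and -2.30 ± 0.36 (SE, edgeR adjusted p = 4.3e-05, 2.1e-05, 1.2e-06 and 0.00051). These 4 of 10 compare with 14.0% of all genes lower, 11.5% higher and 25.5% in either direction. The groups were apart for 6 of the 10, against 42.4% of all genes. Ddc (-0.77, adjusted p = 0.0526) and Slc18a2 (-0.42, adjusted p = 0.0668) lay just past the threshold. Ddc passed it without WT 2 (-0.77, adjusted p = 0.00319) or WT 3 (-0.81, adjusted p = 0.0360), and Slc18a2 without WT 2 (-0.42, adjusted p = 0.0313), WT 3 (-0.46, adjusted p = 0.0317) or Lmx1b+/- 1 (-0.53, adjusted p = 0.0416). Htr1a (0.35), Htr5b (0.08), Gata2 (0.26) and Gata3 (0.26) did not pass, although Htr1a did without Lmx1b+/- 1 (0.58, adjusted p = 0.0143) and Gata2 without Lmx1b+/- 3 (1.02, adjusted p = 0.00913). Library size scaling moved the median of all genes by 0.20 here and took the share of DEGs that were higher from 45.1% to 74.2%.

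**Figure D2:**
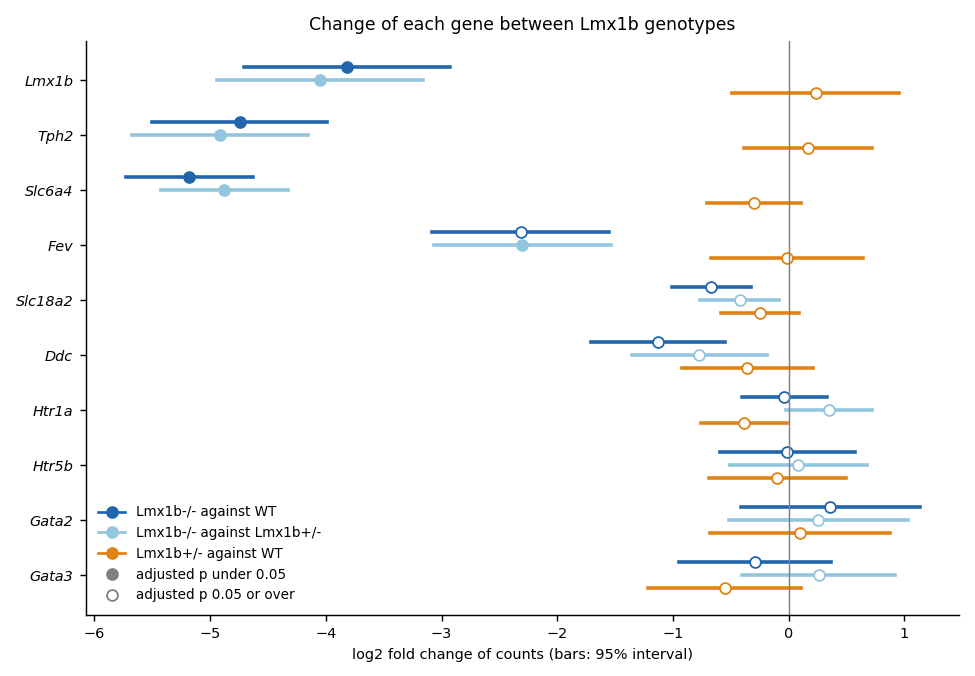
Log2 fold changes of the 10 genes with 95% intervals from edgeR for the 3 comparisons of Lmx1b genotypes, filled where the adjusted p was under 0.05. Lmx1b, Tph2 and Slc6a4 lie between -5.18 and -3.82 in both comparisons of Lmx1b-/-, Fev lies at -2.31 and -2.30, and the intervals of Lmx1b+/- against WT other than that of Htr1a (-0.76 to -0.02) cross 0.

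Genes around the 10 in the serotonin pathway were read from 5 lists. In Lmx1b-/- against WT 0 genes of the 5 lists passed the edgeR test, and neither limma fit called any. At an unadjusted p under 0.05 there were 2 of 6 genes of tetrahydrobiopterin synthesis (the cofactor of Tph2), 2 of 8 of breakdown and uptake, 1 of 11 receptors, 2 of 14 progenitor regulators and 4 of 12 co-markers. DESeq2 called 1 gene of the cofactor list, Gch1, and 1 co-marker, En1, both lower. The median log2 fold changes of the lists were 0.16, 0.07, 0.18, -0.04 and 0.05 in that order, each near the 0.01 of all genes.

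Gch1, the first and rate-limiting enzyme of tetrahydrobiopterin synthesis, stood at 6.89, 5.65 and 4.37 CPM in the WT libraries and at 2.87, 2.44 and 2.62 CPM in Lmx1b-/-. The groups did not overlap (log2 fold change -1.09 ± 0.19, SE, edgeR adjusted p = 0.138). Gchfr, the feedback regulator of that enzyme, stood at 1.06, 0.485 and 1.22 CPM in the WT libraries and at 0.258, 0.267 and 0.451 CPM in Lmx1b-/- (log2 fold change -1.49, adjusted p = 0.538). The other 4 genes of the list were between 0.15 and 0.18 on the log2 scale. Against Lmx1b+/-, the fall passed the test for 4 of 6 (Gch1 -1.06, Gchfr -2.12, Pts -0.32 and Pcbd1 -0.40), of which Pts and Pcbd1 were higher in Lmx1b+/- than in WT (0.48 and 0.57, adjusted p = 0.00435 and 0.00576).

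Receptor genes other than the 2 members did not pass in Lmx1b-/- against WT, with changes from -0.30 to 0.53. Against Lmx1b+/- 4 of 11 were higher (Htr1b 0.54, Htr1d 1.26, Htr3a 0.84 and Htr6 1.09), where 11.5% of all genes were. In Lmx1b+/- against WT 4 of 11 were lower, Htr1b, Htr1d, Htr5a and Htr6 (-0.52, -1.07, -0.44 and -1.0). Of all genes 36.7% were called in that comparison, in either direction. The 1 progenitor regulator called against Lmx1b+/- was Nkx2-2 (0.69). Nkx2-2, the homeodomain factor of the progenitor domain, was 0.07 in Lmx1b-/- against WT, and Gli1, a readout of hedgehog signaling, was -0.94 (edgeR adjusted p = 0.544). Among co-markers, En1 stood at 21.9, 6.72 and 20.2 CPM in the WT libraries and at 3.97, 4.31 and 4.0 CPM in Lmx1b-/- (-1.99, adjusted p = 0.246). Tph1, the peripheral tryptophan hydroxylase, was at 0.668, 0.727 and 0.315 CPM in the WT libraries and at 0.969, 1.31 and 0.610 CPM in Lmx1b-/- (0.78, adjusted p = 0.647). Of 12 pan-neuronal genes 0 passed the edgeR test, 2 had an unadjusted p under 0.05 and DESeq2 called 0, with changes from -0.15 to 0.43.

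**Figure D3:**
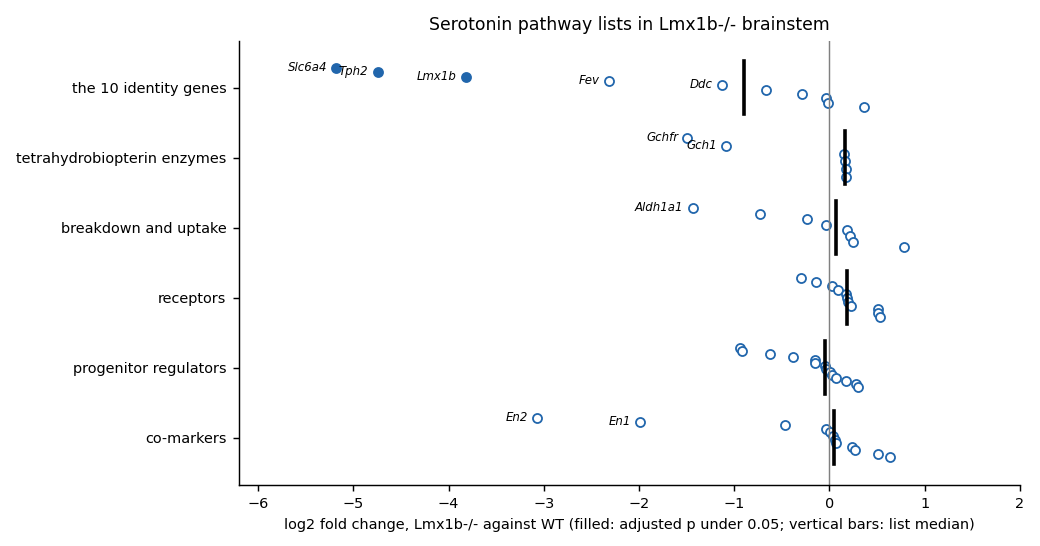
Log2 fold changes of Lmx1b-/- against WT for the 10 identity genes and 5 lists of the serotonin pathway (1 point per gene tested, filled where the edgeR adjusted p was under 0.05, black bars are medians). Filled points are Slc6a4, Tph2 and Lmx1b alone, and the medians of the 5 lists lie between -0.04 and 0.18.

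Over the 9 libraries of the Lmx1b experiment, the genes outside the 10 whose log2 CPM was most like the mean of Tph2, Slc6a4 and Fev were listed by Pearson r. Gch1 came first (r = 0.938), before Narf (0.935), Phlda1 (0.912), Gadd45a (0.910), Gm42710 (0.892), Gm26577 (0.873), Bmyc (0.873), Slc10a4 (0.867), Gchfr (0.866) and Fam122a (0.863). The 9 points fall into low Lmx1b-/- and high other libraries, so these values mostly restate that step, and a gene with a small change can be on the list: Narf stood at 83.5 CPM in the WT libraries and 75.8 CPM in Lmx1b-/-. Slc10a4, a vesicular protein of monoamine and cholinergic neurons, went from 11.9 to 9.01 CPM (edgeR adjusted p = 0.532).

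Within the 6 WT and Lmx1b+/- libraries, where Lmx1b mRNA was present, the identity genes did not all vary together. The Pearson r was 0.98 for Tph2 with Gata2, 0.85 for Tph2 with Fev, 0.95 for Slc18a2 with Gata3 and 0.89 for Slc18a2 with Ddc. These are descriptions over 6 libraries of 2 genotypes that share their scaling, and Lmx1b+/- 3 is the highest library for Tph2, Fev and Gata2 alike. Lmx1b itself had an r of -0.24 with Tph2, -0.52 with Slc6a4, -0.53 with Fev, -0.62 with Slc18a2 and -0.53 with Gata3. Its r was -0.28 with Ddc and -0.27 with Gata2, but 0.45 with Htr1a and 0.35 with Htr5b.

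Whether the libraries labelled AMPKα2-/- differ in the same genes was read from the neonatal experiment. By edgeR, Tph2, Slc6a4, Slc18a2, Ddc, Htr5b and Gata3 were higher and Lmx1b was lower, which is 6 and 1 of 9 tested. Fev was too low to be tested. Of all 17397 genes tested 8.94% were called, 3.77% higher and 5.17% lower. The median log2 fold change of the 9 was 2.07, against -0.01 over all genes. The groups were apart for 2 of them, Lmx1b and Slc18a2, against 26.6% of all genes. These calls came mainly from AMPKα2-/- 1 and from few reads in the shallow AMPKα2-/- 3, and the values of each library are therefore given before any test. Without both shallow libraries 0 of 9 passed (8 had an unadjusted p under 0.05, and 6 genes were called in all), DESeq2 called Tph2 alone among the 5 genes for which it gave an adjusted p, and limma called 0 of 9.

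Tph2 stood at 2.77, 6.66 and 0.700 CPM in the libraries WT 1, 2 and 3 and at 134, 3.63 and 69.5 CPM in AMPKα2-/- 1, 2 and 3. The value of WT 2 came from 2 reads and that of AMPKα2-/- 3 from 23, whose 95% Poisson interval was 44.1 to 104 CPM. AMPKα2-/- 1 was 36.8 times the next of the deep libraries, which was AMPKα2-/- 2, and AMPKα2-/- 2 was 2.09 times the mean of WT 1 and WT 3. Its fitted change on the log2 scale was 5.26 ± 0.85 (SE, edgeR adjusted p = 0.000835), and it was 3.50 without AMPKα2-/- 1.

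Slc6a4 stood at 0.461, 16.6 and 0.875 CPM in the WT libraries and at 70.2, 1.49 and 39.3 CPM in AMPKα2-/-. WT 2 rested on 5 reads and AMPKα2-/- 3 on 13, and their intervals of 5.4 to 38.8 and 20.9 to 67.2 CPM overlapped. Among the deep libraries AMPKα2-/- 1 was again alone, at 47.1 times the next. The log2 fold change was 5.31 ± 0.98 (SE, edgeR adjusted p = 0.00209), and without AMPKα2-/- 1 it was 3.11 (adjusted p = 0.0064).

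Htr5b stood at 0.198, 6.66 and 0.350 CPM in the WT libraries and at 50.1, 0.907 and 30.2 CPM in AMPKα2-/-. The ratio of AMPKα2-/- 1 to the next deep library was the highest of the 10, at 55.2. Its fitted change on the log2 scale was 6.17 ± 1.04 (SE, edgeR adjusted p = 0.00107) with all libraries and 4.0 (adjusted p = 0.00235) without AMPKα2-/- 1. The calls of Tph2, Slc6a4 and Htr5b held with any 1 of the 6 libraries left out. Their highest edgeR adjusted p were 0.0188, 0.0298 and 0.0208, each without AMPKα2-/- 3. These calls did not hold without both shallow libraries. Fev, on 63 reads, stood at 4.16 CPM in AMPKα2-/- 1 and was at or under 0.467 CPM in each other library that was deep. It had 0 reads in both shallow libraries, where 3 counts, the floor used throughout, correspond to 9.98 and 9.07 CPM.

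Slc18a2 stood at 12.0, 9.98 and 7.53 CPM in the WT libraries and at 103, 12.0 and 33.2 CPM in AMPKα2-/-. Ddc stood at 14.0, 6.66 and 7.53 CPM in the WT libraries and at 47.6, 13.2 and 33.2 CPM in AMPKα2-/-. In both genes AMPKα2-/- 2 was level with WT 1. The log2 fold changes of 2.46 (edgeR adjusted p = 0.00371) and 1.55 (adjusted p = 0.0118) went to 0.73 and 0.72 (adjusted p = 0.323 and 0.310) without AMPKα2-/- 1. Ddc also missed the threshold without WT 3 (1.23, adjusted p = 0.0620) or AMPKα2-/- 3 (1.56, adjusted p = 0.0527).

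Gata3 stood at 0.461, 0 and 1.28 CPM in the WT libraries and at 6.41, 1.04 and 3.02 CPM in AMPKα2-/-, the last from 1 read. Its log2 fold change of 2.07 (edgeR adjusted p = 0.0463) was 0.46 without AMPKα2-/- 1, and it lost its call also without WT 1 (1.58, adjusted p = 0.123), WT 2 (2.05, adjusted p = 0.0873) or AMPKα2-/- 3 (2.12, adjusted p = 0.0995). Gata2, at 1.45, 3.33 and 1.98 CPM in the WT libraries and 6.87, 1.17 and 3.02 CPM in AMPKα2-/-, did not pass (1.16, adjusted p = 0.206). It turned to -0.44 without AMPKα2-/- 1 and passed without AMPKα2-/- 2 (1.83, adjusted p = 0.0164). Htr1a varied least across these libraries, at 16.1, 20.0 and 13.7 CPM in the WT libraries and 24.6, 24.3 and 15.1 CPM in AMPKα2-/- (0.62, adjusted p = 0.108).

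Lmx1b was the 1 gene of the 10 with lower values in AMPKα2-/-. It stood at 18.8, 13.3 and 13.5 CPM in the WT libraries and at 2.84, 9.65 and 6.04 CPM in AMPKα2-/-, where WT 2 rested on 4 reads and AMPKα2-/- 3 on 2. The lowest library for Lmx1b was AMPKα2-/- 1, the highest for Tph2, Slc6a4, Fev, Slc18a2, Ddc, Htr5b, Gata2 and Gata3. The log2 fold change was -1.35 ± 0.37 (SE, edgeR adjusted p = 0.0233). It missed the threshold without AMPKα2-/- 1 (-0.76, adjusted p = 0.270), AMPKα2-/- 3 (-1.31, adjusted p = 0.0780) or WT 2 (-1.36, adjusted p = 0.0502), and was -2.37 without AMPKα2-/- 2. Other markers of dorsal hindbrain neurons, a lineage that also uses Lmx1b, were low in the same library: Lbx1 stood at 23.6, 20.0 and 13.1 CPM in the WT libraries and at 0.991, 9.72 and 6.04 CPM in AMPKα2-/- (-1.78, edgeR adjusted p = 0.0254). Tlx3 stood at 4.02, 3.33 and 2.74 CPM in the WT libraries and at 0.0661, 1.49 and 0 CPM in AMPKα2-/- (-2.13, adjusted p = 0.0459), and Prrxl1 at 26.1, 16.6 and 15.6 CPM and at 4.49, 19.9 and 6.04 CPM (-0.80, adjusted p = 0.205). Of the 8 genes of that list, Lmx1b included, edgeR called 3 lower and 2 higher and DESeq2 called 0. The list summed to 251 to 280 CPM in WT and 272 to 318 CPM in AMPKα2-/-. Most of that sum was Slc17a6, at 197, 203 and 197 CPM in WT and 232, 261 and 215 CPM in AMPKα2-/-. The sum therefore says little about Lbx1, Tlx3 or Prrxl1. The part of these dorsal markers in the fall of Lmx1b was not tested. AMPKα2-/- 2, the other deep library of that label, lay at 0.597 to 3.31 times the mean of WT 1 and WT 3 for each of the 9 genes other than Fev, which had 0 reads in it.

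**Figure D4:**
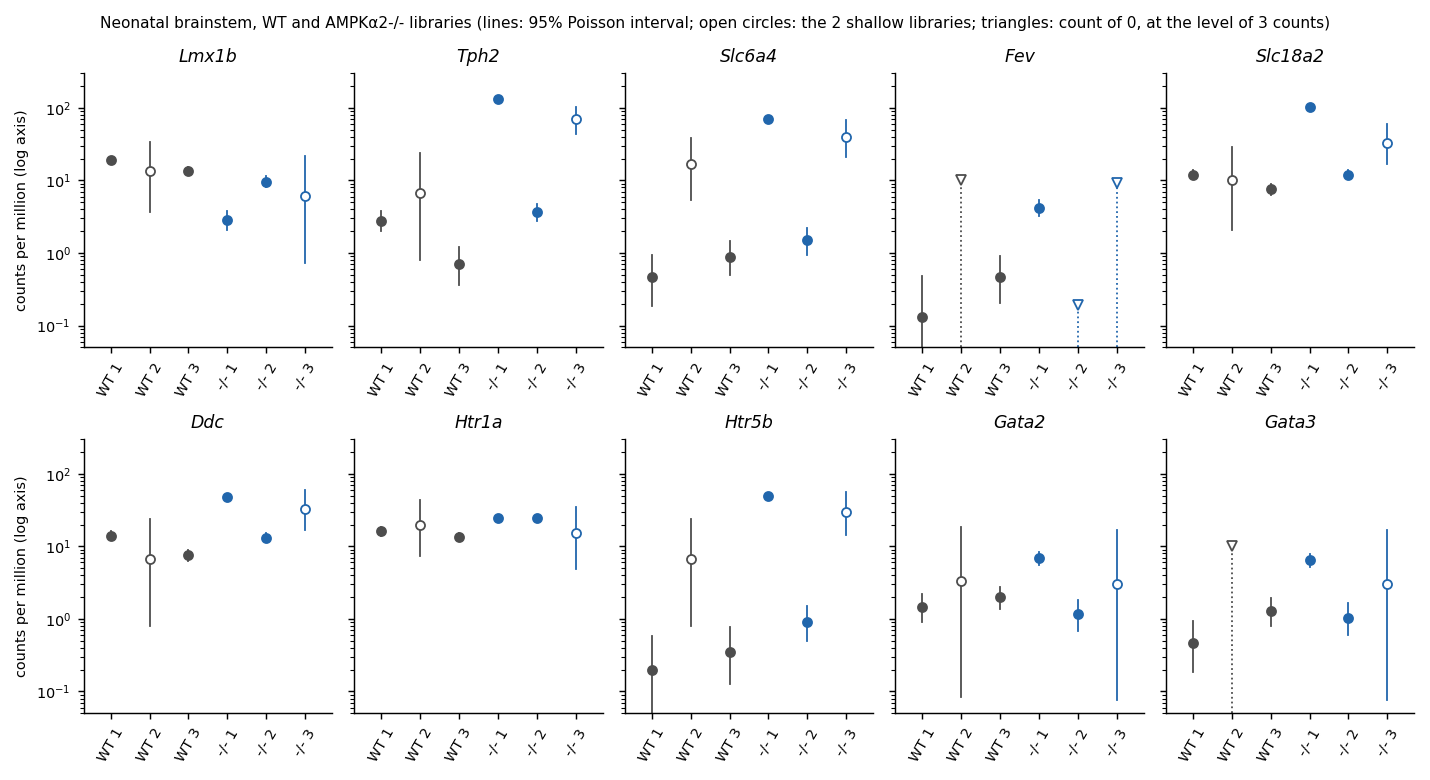
TMM-scaled CPM of the 10 genes in the 6 neonatal libraries on log axes, with 95% Poisson intervals for counting error only, open circles for the shallow libraries WT 2 and AMPKα2-/- 3 (labelled -/- 3) and triangles for a count of 0, drawn at the level of 3 counts that it allows. AMPKα2-/- 1 is the highest measured point in each panel other than that of Lmx1b, where it is lowest at 2.84 CPM.

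Other lists that differed between the same libraries are given here, and their part in the member values was not tested. The 11 Hox genes of the hindbrain summed to 48.0 CPM in AMPKα2-/- 1 and to 93.7 to 203 CPM in the other 5 libraries. The 11 isthmus and midbrain genes summed to 12.4 CPM in AMPKα2-/- 1 and 9.07 to 32.3 CPM in the others. The 10 skeletal muscle genes summed to 942 CPM in WT 3 and to 6.01 to 11.1 CPM in the others, and all 5 that were tested were called lower in AMPKα2-/- by edgeR. The choroid plexus gene Ttr stood at 1.84, 6.66 and 5.19 CPM in the WT libraries and at 52.1, 26.6 and 112 CPM in AMPKα2-/-. Of the 12 pan-neuronal genes edgeR called 4 higher (Tubb3, Syt1, Elavl4 and Stmn2) and 2 lower (Rbfox3 and Syn1), and DESeq2 called 4. The 5 noradrenergic genes summed to 10.2, 18.3 and 24.2 CPM in AMPKα2-/- and 10.4 to 26.6 CPM in WT. Library size scaling moved the median of all genes by -0.18 and took the share of DEGs that were higher from 42.1% to 14.2%.

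Of the serotonin pathway lists, co-markers had the most calls in the AMPK experiment, with 5 of 12 higher and 0 lower by edgeR (Sncg, Calca, Crhbp, Trh and Rgs4), and DESeq2 called 2 of the 12. Sncg, a synuclein of raphe and motor neurons, was higher in every AMPKα2-/- library, AMPKα2-/- 2 included, at 164, 72.7 and 136 CPM, where WT had 18, 29.9 and 27.8 CPM (log2 fold change 2.37, edgeR adjusted p = 1.7e-05). Calca was likewise apart, at 17.9, 15.3 and 18.1 CPM against 5.6, 6.66 and 7.06 CPM (1.40, adjusted p = 0.00365). Crhbp (3.79) and Trh (2.49) followed the pattern of Tph2, with Trh, the thyrotropin-releasing hormone that medullary raphe neurons also carry, at 73.3, 5.89 and 39.3 CPM in AMPKα2-/- and 11.4, 16.6 and 1.98 CPM in WT. Gch1 was at 12.0, 2.85 and 3.02 CPM, the last from 1 read, against 2.24, 0 and 0.934 CPM (2.20, adjusted p = 0.0130), and Pcbd1 was also higher (1.51, adjusted p = 0.00617). Of the remaining lists, genes called higher by edgeR included Htr2a and Nkx6-1 (0.95 and 1.83). DESeq2 called 0 genes of the cofactor, receptor and progenitor lists. No gene of breakdown and uptake passed the edgeR test, with 2 of 7 at an unadjusted p under 0.05 and 0 called by DESeq2.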

How the data were processed

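Poly(A) RNA of mouse brainstem was sequenced in 15 libraries. Per the labels the reads were aligned with HISAT2 to GRCm39. The read counter and annotation are not given in the sources used here. The authors deposited raw counts per gene and RPKM, a level scaled for gene length and library size. Counts of 57180 gene identifiers were tested with edgeR 4.0.16 (R 4.3.3, filterByExpr, TMM scaling, quasi-likelihood F test), separately for the 6 AMPK and 9 Lmx1b libraries. P-values were adjusted over all genes tested by the Benjamini-Hochberg method, with a threshold of 0.05, and the procedure was tested on simulated data. Alternatives were other scalings, no filter, DESeq2 1.42.0, limma 3.58.1 on log2(RPKM + 1) and log2(RPKM + 0.1), a replicate block and leaving out libraries. Fold changes of limma are on those log2 scales. Poisson intervals (95%) of CPM and the floor of 3 counts cover counting error only, while 95% intervals of log2 fold changes come from edgeR's standard errors and include the spread between libraries.

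The members and gene lists were chosen with earlier results of these data known. The rule for named genes was the 10 members, Prkaa2, up to 3 genes per list with the smallest p, and the 10 genes most like Tph2, Slc6a4 and Fev. Other genes were named after their values were seen. Promoters came from RefSeq (GRCm38.p6) and no coordinates were converted. Some genes of the lists are not reported here.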

Additional observations from a re-analysis of the deposited data

How the results depend on the processing

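The 3 calls of Slc6a4, Tph2 and Lmx1b in Lmx1b-/- against WT held under each alternative run. The number of genes called there, 4, was 19 with library size scaling, 329 with all genes that had any count, 34 with DESeq2 and 13 with only the 6 libraries compared, and 3 to 11 when 1 library was left out. The 3 identity genes called became 6 with all genes that had any count and 6 with DESeq2, and 3 to 5 when 1 library was left out. The number of all genes called was 10 without WT 2, 7 without Lmx1b+/- 3 and 11 without Lmx1b-/- 2. In Lmx1b+/- against WT the 0 identity genes became 3 with library size scaling, 1 with any count and 1 with each limma fit, and 0 to 3 when 1 library was left out (5911 to 8404 genes in all). In Lmx1b-/- against Lmx1b+/- 3500 to 6054 genes were called when 1 library was left out, and 4 to 6 identity genes under every alternative. The lowest counts were 3602 without Lmx1b-/- 1 and 3500 without Lmx1b-/- 3.

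In AMPKα2-/- against WT the 1555 genes and 7 identity genes called became 680 and 1 with DESeq2, 0 and 0 with either limma fit, and 6 and 0 without both shallow libraries. They were 548 to 2958 genes and 3 to 8 identity genes when 1 library was left out. The depth of WT 2 and AMPKα2-/- 3 limits every value there. The cause of these differences was not tested.

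Directions turned for changes near 0. In Lmx1b+/- against WT they were -0.030 and -0.047 for Lmx1b with limma (pseudocounts 1 and 0.1), -0.070 with library size scaling and -0.11 and -0.15 with limma for Tph2, and -0.13, -0.16 and -0.31 for Gata2. With 1 library left out they spanned -0.30 to 0.56 for Lmx1b, -0.28 to 0.38 for Tph2, -0.39 to 0.24 for Fev, -0.33 to 0.10 for Htr5b and -0.66 to 0.42 for Gata2. In Lmx1b-/- against WT, Htr1a spanned -0.10 to 0.0015 and Htr5b -0.17 to 0.17. Against Lmx1b+/-, Htr5b spanned -0.14 to 0.29, Gata2 -0.080 to 1.02 and Gata3 -0.0019 to 0.55. In the AMPK experiment Gata2 spanned -0.44 to 1.83.

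With the replicate block, 1350 genes and 7 identity genes were called in the AMPK experiment, 7243 and 0 in Lmx1b+/- against WT, 5 and 3 in Lmx1b-/- against WT and 4720 and 4 in Lmx1b-/- against Lmx1b+/-. Gata2 turned to -0.021 in Lmx1b+/- against WT under the block. Deviations of same-numbered libraries correlated at 0.0758, 0.148 and 0.0974 between WT and Lmx1b-/-, each best with its own number. In the other pairs of groups they correlated at -0.177 to 0.0476. Whether same-numbered WT and Lmx1b-/- libraries share more than a number is not given in the sources used here and was not tested.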
